A study of Mus musculus with 2 samples.

Results

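Immunoglobulin variable (V) segments are described here in RNA of haematopoietic stem cells (HSCs) sorted from mouse bone marrow. The members are all genes of GENCODE type IG_V_gene with a symbol beginning Ighv, Igkv or Iglv that were above 0 in at least 1 of the 2 libraries. They were thus chosen by the same FPKM values that are described. The rule was met by 112 genes, of 216 annotated V genes with such symbols and of 54531 genes in the table. They comprised 63 of 113 Ighv (heavy chain) genes, 46 of 100 Igkv (kappa light chain) genes and the 3 Iglv (lambda light chain) genes. The first library came from mice labelled Cdh5-Cre;Angptl2fl/fl, in which a Cre under the Cdh5 (vascular endothelial cadherin) promoter acts on floxed Angptl2, and is called the deletion sample. The other came from mice labelled Angptl2fl/fl and is called the control sample. Both genotype labels carry the floxed Angptl2 alleles, but the column of the control sample is named after Cdh5 and Cre, so whether those mice also had Cre is not settled. The genotype label names Cdh5 as the driver of Cre and does not itself state in which cells, HSCs included, Angptl2 was lost. In these libraries Angptl2 had 19 fragments in the deletion sample and 29 in the control sample, too few to check the labels. Mouse age, strain, number of mice per library and sorting gate are not stated in the labels. With 1 library per genotype there is no replicate check and no test across samples, and "higher" and "lower" describe these libraries.

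A V segment is expressed as antibody mRNA after a developing B cell joins it to a J segment (and, in the heavy chain, a D segment). The joined exon is spliced to a constant region, so that each B cell and its daughters carry 1 main heavy and 1 main light chain. Plasma cells, the antibody-secreting end stage, hold very large amounts of this mRNA and lodge in bone marrow. HSCs have not rearranged these loci, although unrearranged V segments can give some germline transcripts in early B-cell precursors. The annotated V genes lie on chromosome 12 (Ighv, 113578504 to 116000461), chromosome 6 (Igkv, 67555497 to 70704177) and chromosome 16 (Iglv, 19085017 to 19260859), in the GENCODE release on GRCm38. The table has no coordinates of its own.

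Levels are FPKM (fragments per 1000000 fragments and per kilobase of exon), as deposited. Whole fragment numbers were recovered from them for all 112 members, at depths of 16843100 fragments in the deletion sample and 17378600 in the control sample. V segments took 0.0262% of the fragments in the deletion sample and 0.0477% in the control sample. Counting intervals are exact Clopper-Pearson intervals at 95% from these fragments. They cover counting error alone, because several fragments can come from 1 mRNA molecule or be copies of each other.

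Fewer V segments were detected in the deletion sample, and at a lower summed level in the heavy and kappa loci. There 46 members were above 0, against 96 in the control sample. Of the 112, 30 were above 0 in both libraries, 16 in the deletion sample alone and 66 in the control sample alone. Over all genes above 0 in at least 1 library, 4.83% were above 0 in the deletion sample alone and 20.8% in the control sample alone. The summed level of all members was 713 FPKM (4417 fragments) in the deletion sample and 1276 FPKM (8287 fragments) in the control sample, a log2 ratio of the sums of -0.84 (counting interval -0.92 to -0.81). In bulk RNA, fewer cells of a type and less RNA per cell cannot be told apart. Thinning the control sample's V fragments to the number in the deletion sample would leave an expected 88.9 of its 96 members above 0. That expectation treats each fragment as an independent draw, although several can come from 1 mRNA molecule, so no conclusion is drawn from it. Over all genes, 18217 were above 0 in the deletion sample and 21891 in the control sample. The source of the difference in detection was not tested.

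The rule's limit was a level above 0. Just inside it were 11 members with 1 fragment in all, each of them in the control sample, and the lowest value was that of Ighv1-77 at 0.14 FPKM. Just outside were the 104 V genes listed at 0 in both libraries. Members ranged up to 145 FPKM in the deletion sample and 102 FPKM in the control sample, with medians of 4.40 FPKM and 7.09 FPKM among those above 0. A count of 0 allows up to 3 fragments, which is 0.37 to 0.53 FPKM for these gene models of 338 to 461 bases.

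**Figure D1:**
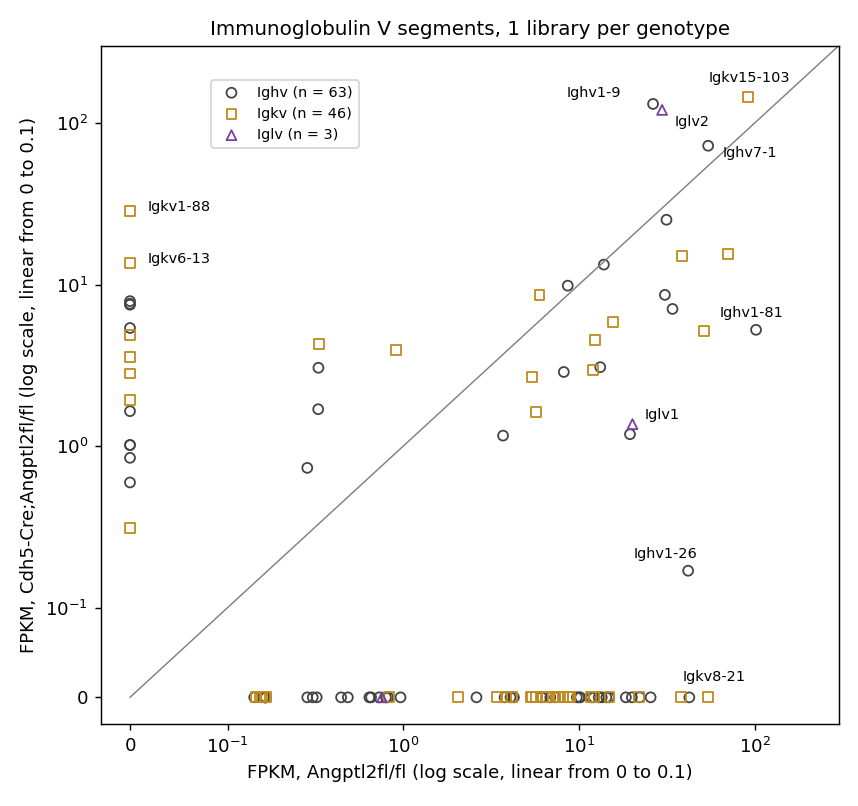
Level of each of the 112 V segments in FPKM in the deletion sample (vertical axis) against the control sample (horizontal axis), both on a log scale that is linear from 0 to 0.1, with the line of equality. Circles are the 63 Ighv, squares the 46 Igkv and triangles the 3 Iglv genes. The 66 members on the bottom edge were listed at 0 in the deletion sample and the 16 on the left edge were listed at 0 in the control sample.

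The ratio log2((FPKM + 1)/(FPKM + 1)), deletion over control, was read for the 80 members with a mean of at least 1 FPKM, and a difference was counted at 2-fold. By that rule 15 members were higher in the deletion sample, 58 were lower and 7 lay between. Among all 12325 genes at that minimum, 2.47% were higher and 3.38% lower. The median log2 ratio was -2.38 for the 80 members and -0.011 for all genes. The members' own levels chose them, and a segment can reach the minimum through the library in which it is high, so these counts are a description. Of the 58 lower members 42 were listed at 0 in the deletion sample, and of the 15 higher ones 9 were listed at 0 in the control sample. Over all genes at the minimum, 1.97% were listed at 0 in the deletion sample alone and 0.706% in the control sample alone. The other 32 members did not reach the minimum.

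The level was concentrated on fewer segments in the deletion sample. The highest Ighv member made up 41.0% of the heavy chain V level there, against 15.2% in the control sample. The 5 highest made up 78.6% in the deletion sample and 41.0% in the control sample. For Igkv the highest member made up 53.6% in the deletion sample and 16.4% in the control sample, and the 5 highest 80.4% and 55.0%. Expressed as fragments, the share of the highest member was 39.4% (interval 37.2% to 41.5%) in the deletion sample and 14.4% (13.4% to 15.5%) in the control sample for Ighv. For Igkv it was 54.1% (51.7% to 56.5%) in the deletion sample and 16.3% (15.1% to 17.5%) in the control sample. The effective number of segments, which is 1 over the sum of the squared shares, was 4.32 against 17.9 for Ighv and 3.22 against 12.8 for Igkv, deletion sample first.

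**Figure D2:**
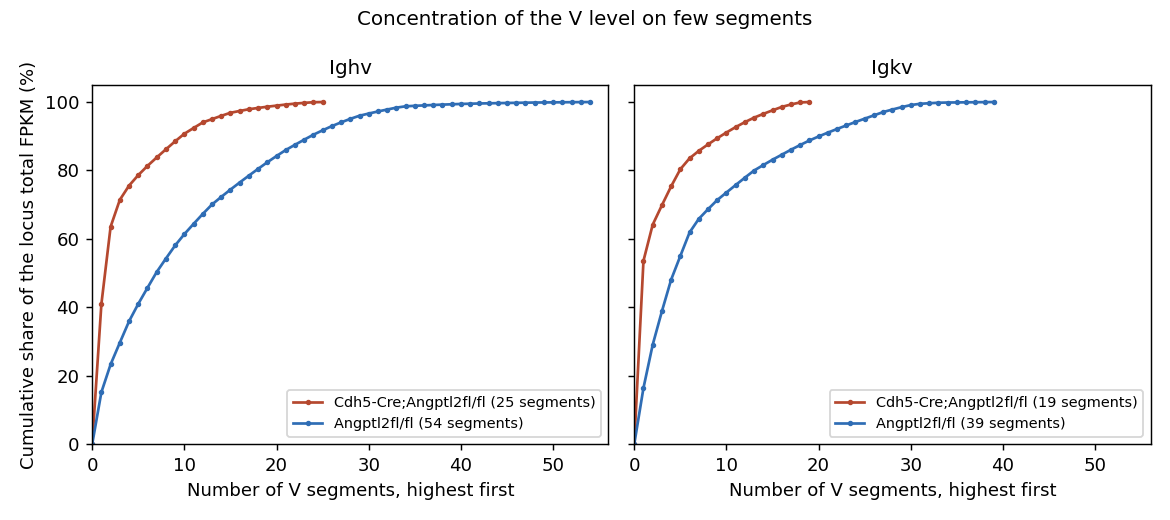
Cumulative share of the FPKM total of the locus (vertical axis, %) against the number of V segments counted from the highest (horizontal axis), for Ighv (left) and Igkv (right). The curve of the deletion sample rises faster and ends at 25 Ighv and 19 Igkv segments, against 54 and 39 in the control sample.

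In the heavy chain locus 25 members were above 0 in the deletion sample and 54 in the control sample, with 16 in both. The summed level was 320 FPKM in the deletion sample and 669 FPKM in the control sample (log2 ratio -1.06, interval -1.16 to -1.0). Different segments led each library. The coding 3′ ends of the leading segments are shown, read from the GENCODE transcripts on GRCm38 by gene identifier. Antibody mRNAs that use a segment carry most of this stretch just before the join, though not always its last bases. The capitals mark the last in-frame cysteine codon, which closes the third framework region.
Ighv1-9: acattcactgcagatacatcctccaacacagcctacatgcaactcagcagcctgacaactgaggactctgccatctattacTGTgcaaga
Ighv7-1: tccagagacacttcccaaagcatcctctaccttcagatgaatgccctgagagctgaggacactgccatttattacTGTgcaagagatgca
Ighv1-81: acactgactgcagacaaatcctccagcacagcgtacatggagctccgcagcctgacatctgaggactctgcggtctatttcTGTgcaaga

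Ighv1-9 (chromosome 12, 114583569 to 114584002, minus strand, with 2 exons, as in every member) was the highest heavy chain segment of the deletion sample. It stood at 131 FPKM (776 fragments) there and at 26.4 FPKM (161 fragments) in the control sample. That is a 4.97-fold difference, with a counting interval of the plain log2 ratio of 2.07 to 2.57. Ighv1-81 (115920279 to 115920712, minus strand), of the same family, was the highest of the control sample. It stood at 5.24 FPKM (31 fragments) in the deletion sample and at 102 FPKM (621 fragments) in the control sample, with an interval of -4.85 to -3.76. Ighv7-1, a segment known from antibodies to phosphorylcholine, was high in both libraries. Its level was 72.3 FPKM in the deletion sample and 54.4 FPKM in the control sample (interval 0.20 to 0.62).

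Ighv1-55 differed by less than 2-fold, at 25.2 FPKM in the deletion sample and 31.5 FPKM in the control sample (interval -0.61 to -0.032). Ighv1-26 gave 1 fragment (0.17 FPKM) in the deletion sample and 255 fragments (41.8 FPKM) in the control sample, a log2 ratio with an interval from -13.3 to -5.46. Ighv1-80 was listed at 0 in the deletion sample and stood at 42.5 FPKM in the control sample, at least 83.7-fold lower against a floor of 3 fragments per library. That floor leaves out the counting error of the control sample, and the counting interval of the log2 ratio reaches up to -6.08. Ighv1-72 was likewise listed at 0 in the deletion sample, with 25.6 FPKM in the control sample. Ighv1-80 and Ighv1-72 were among the 38 Ighv members seen in the control sample alone, whose levels ran from 0.14 to 42.5 FPKM with a median of 3.92 FPKM. They made up 41.9% of the heavy chain V level of that library. The 9 Ighv members seen in the deletion sample alone ran from 0.60 to 7.90 FPKM with a median of 1.64 FPKM, and made up 10.5% of its level.

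By V family, members of 9 of 16 annotated Ighv families were above 0 in the deletion sample and of 13 in the control sample. Ighv1, which is by far the largest family of the mouse locus with 53 annotated genes, held 11 segments above 0 in the deletion sample and 28 in the control sample. Its summed level was 195 FPKM and 382 FPKM, deletion sample first, or 60.8% and 57.1% of the locus, so its share differed little. Ighv7 made up 23.1% of the locus in the deletion sample and 8.12% in the control sample, through Ighv7-1. Ighv2 was at 3.05 FPKM in the deletion sample and 44.3 FPKM in the control sample, with 1 and 4 segments above 0. Ighv3 (29.0 FPKM over 3 segments), Ighv4 (18.5 FPKM) and Ighv10 (6.87 FPKM) were present in the control sample and listed at 0 in the deletion sample, as was Ighv6 with 4 fragments. Ighv5, whose members lie close to the D segments, was at 26.2 FPKM in the deletion sample and 42.6 FPKM in the control sample. Its members Ighv5-6, at 13.3 FPKM in the deletion sample and 13.9 FPKM in the control sample, and Ighv5-16, at 9.84 FPKM and 8.63 FPKM in the same order, were among the 7 that lay between. Ighv14 had 3 segments above 0 in the deletion sample and 1 in the control sample, at 3.13 FPKM against 0.33 FPKM, and Ighv7 had 2 against 1.

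Ighv11-2 and Ighv12-3, named after their values were seen, are known from antibodies of B-1 cells to phosphatidylcholine. Ighv11-2 stood at 8.63 FPKM in the deletion sample and 30.8 FPKM in the control sample (interval -2.25 to -1.44). Ighv12-3 stood at 7.06 FPKM in the deletion sample and 34.1 FPKM in the control sample (interval -2.78 to -1.79). Both were thus present in both libraries and lower in the deletion sample.

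**Figure D3:**
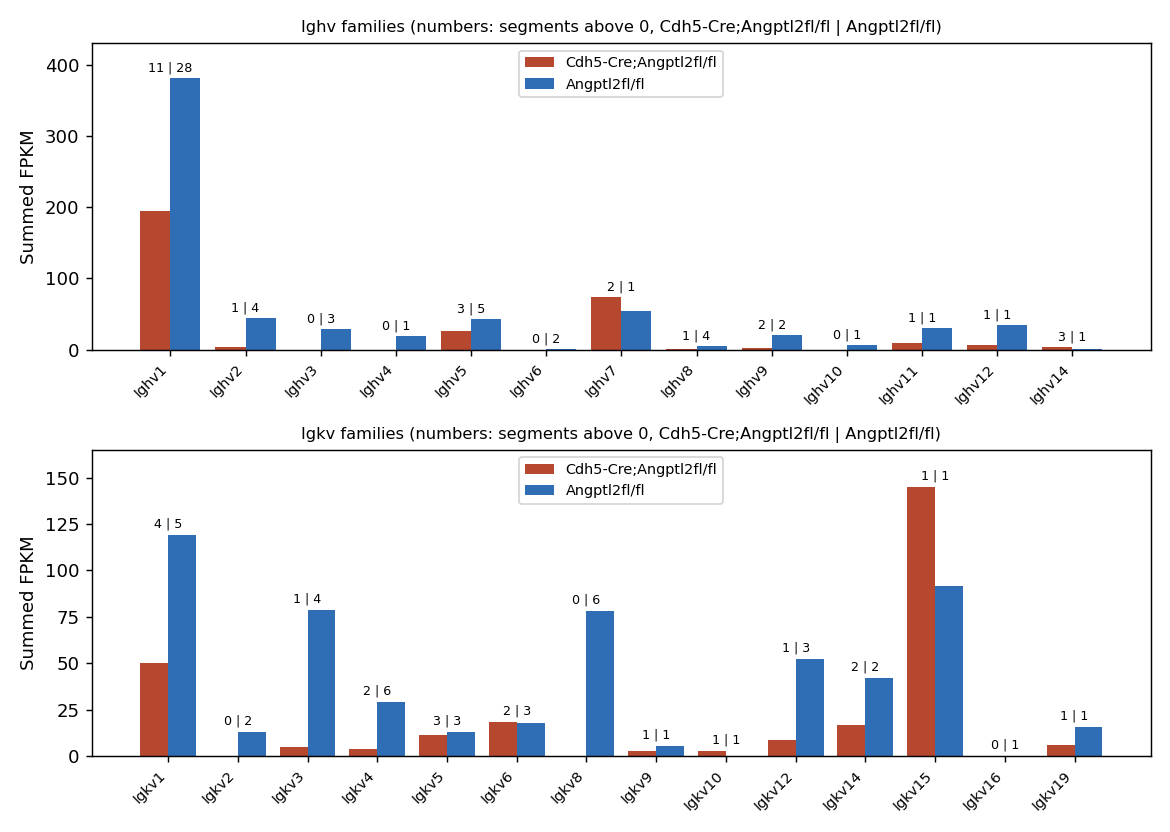
Summed FPKM of each V family (vertical axis, linear) in the deletion sample (left bar of each pair) and the control sample (right bar), for Ighv (top) and Igkv (bottom). The numbers over each pair are segments above 0 in the deletion and control libraries. Ighv1 is the highest heavy chain family in both libraries, and Igkv8 has 6 segments in the control sample and none in the deletion sample.

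In the kappa locus 19 members were above 0 in the deletion sample and 39 in the control sample, with 12 in both. The summed level was 271 FPKM in the deletion sample and 556 FPKM in the control sample (log2 ratio -1.04, interval -1.15 to -0.98). Here the same segment, Igkv15-103, led both libraries. Its coding 3′ end is shown as above, with those of Igkv1-110, another segment high in both libraries, and of Igkv8-21, the highest segment listed at 0 in the deletion sample.
Igkv15-103: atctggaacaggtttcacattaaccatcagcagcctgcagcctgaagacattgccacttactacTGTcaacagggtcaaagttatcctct
Igkv1-110: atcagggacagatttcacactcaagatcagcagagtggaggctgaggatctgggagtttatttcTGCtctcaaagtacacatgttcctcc
Igkv8-21: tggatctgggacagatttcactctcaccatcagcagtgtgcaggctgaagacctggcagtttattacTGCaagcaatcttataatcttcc

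Igkv15-103 (chromosome 6, 68437440 to 68437925, plus strand) is the single annotated member of its family. It stood at 145 FPKM (916 fragments) in the deletion sample and 91.5 FPKM (596 fragments) in the control sample, 1.59-fold higher (interval 0.51 to 0.82). Igkv1-110 (68270485 to 68271267, plus strand) stood at 15.4 FPKM (104 fragments) in the deletion sample and 70.2 FPKM (489 fragments) in the control sample (interval -2.51 to -1.88). Igkv8-21 (70314895 to 70315472, minus strand) was listed at 0 in the deletion sample and had 54.5 FPKM (362 fragments) in the control sample, at least 117-fold lower against the same floor (interval up to -6.56).

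Igkv12-44 was also listed at 0 in the deletion sample, against 38.2 FPKM in the control sample. Igkv3-5 stood at 5.13 FPKM in the deletion sample and 51.4 FPKM in the control sample. Igkv14-126, which pairs with Ighv11-2 in antibodies to phosphatidylcholine, stood at 14.9 FPKM in the deletion sample and 38.6 FPKM in the control sample (interval -1.74 to -1.01). In the other direction, Igkv1-88 had 28.5 FPKM (174 fragments) in the deletion sample and Igkv6-13 had 13.6 FPKM (82 fragments), and both were listed at 0 in the control sample. Against the same floor that is at least 59.8-fold and at least 28.2-fold higher, with intervals that reach down to 5.59 for Igkv1-88 and 4.49 for Igkv6-13. These were the highest of 7 Igkv members seen in the deletion sample alone, which made up 20.5% of its kappa V level. The 27 Igkv members seen in the control sample alone ran up to 54.5 FPKM with a median of 6.21 FPKM, and made up 44.3% of its kappa V level.

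Of 20 annotated Igkv families, 11 were above 0 in the deletion sample and 14 in the control sample. Igkv15 held 53.6% of the kappa V level in the deletion sample and 16.4% in the control sample. Igkv1 held 18.5% and 21.4%, deletion sample first, at 50.1 FPKM and 119 FPKM. Igkv8 was listed at 0 throughout in the deletion sample and had 6 segments and 78.1 FPKM in the control sample. Igkv3 stood at 5.13 FPKM in the deletion sample and 78.5 FPKM in the control sample. Igkv4, the largest kappa family with 26 annotated genes, was sparse in both, at 3.87 FPKM from 2 segments in the deletion sample and 29.3 FPKM from 6 others in the control sample. Igkv6 had nearly equal sums, 18.4 FPKM in the deletion sample and 17.8 FPKM in the control sample (interval -0.38 to 0.39), but from different segments, with none of its 5 members above 0 in both.

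The lambda locus went the other way from heavy and kappa chains in its sum. Its 3 V genes summed to 122 FPKM in the deletion sample and 50.6 FPKM in the control sample (log2 ratio 1.27, interval 1.04 to 1.42). The mouse lambda locus is small, and Iglv2 joins mainly to the constant gene Iglc2 while Iglv1 joins to Iglc3 or Iglc1. Iglv2 and Iglv1 differed in opposite directions although their coding sequences, both of 351 bases, differ at 11 positions. For that reason the last 300 coding bases of each are shown, with the 8 differing positions in this stretch in capitals.
Iglv2: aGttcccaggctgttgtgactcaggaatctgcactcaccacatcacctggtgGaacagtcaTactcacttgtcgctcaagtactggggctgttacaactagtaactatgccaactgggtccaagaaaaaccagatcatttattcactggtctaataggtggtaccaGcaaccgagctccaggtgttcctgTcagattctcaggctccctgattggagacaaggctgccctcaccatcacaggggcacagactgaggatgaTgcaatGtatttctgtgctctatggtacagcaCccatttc
Iglv1: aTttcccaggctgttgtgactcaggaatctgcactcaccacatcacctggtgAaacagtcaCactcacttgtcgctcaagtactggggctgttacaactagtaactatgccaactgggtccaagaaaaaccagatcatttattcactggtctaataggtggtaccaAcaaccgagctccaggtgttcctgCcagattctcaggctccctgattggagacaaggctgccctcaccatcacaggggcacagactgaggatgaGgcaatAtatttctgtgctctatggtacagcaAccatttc

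Iglv2 (chromosome 16, 19260401 to 19260859, minus strand) stood at 121 FPKM (743 fragments) in the deletion sample and 29.7 FPKM (189 fragments) in the control sample, 4.06-fold higher (interval 1.79 to 2.26). Iglv1 (19085017 to 19085500, minus strand) stood at 1.37 FPKM (9 fragments) in the deletion sample and 20.2 FPKM (137 fragments) in the control sample (interval -5.04 to -2.92). Iglv3 was listed at 0 in the deletion sample and had 5 fragments in the control sample, a difference not detectable at this depth (upper bound 0.17). Iglv2 thus made up 98.9% of the lambda V level in the deletion sample and 58.7% in the control sample, and without it the log2 ratio of the lambda sums was -3.94. Lambda made up 31.1% of the light chain V level in the deletion sample and 8.34% in the control sample. The constant genes divided in the same pairs. Iglc2 stood at 62.7 FPKM in the deletion sample and 22.5 FPKM in the control sample, while Iglc3 and Iglc1 were listed at 0 in the deletion sample and had 9.04 FPKM and 3.80 FPKM in the control sample.

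The 30 members above 0 in both libraries made up 87.5% of the V level in the deletion sample and 58.6% in the control sample. They were 65.2% of the segments detected in the deletion sample and 31.2% of those in the control sample. Of the 30, 11 were higher and 19 lower in the deletion sample by plain FPKM. The counting interval lay above 0 for 8 of them, below 0 for 18 and included 0 for 4, and 5 differed by no more than 1.5-fold. Matching counts over all genes are not given here, so these describe the 30 members alone. Among the 10 highest segments of each library 4 were common to both, namely Ighv7-1, Igkv1-110, Igkv14-126 and Igkv15-103. Of the control sample's 10 highest, 3 were listed at 0 in the deletion sample, and of the deletion sample's 10 highest, 2 were listed at 0 in the control sample.

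Along the heavy chain locus, the 56 annotated V genes nearest to the D segments held 15 members above 0 in the deletion sample and 26 in the control sample. They made up 82.1% of the heavy chain V level in the deletion sample and 46.8% in the control sample. The 57 genes farther away held 10 members above 0 in the deletion sample and 28 in the control sample. In the deletion sample this division rests on Ighv1-9, which is the last of the 56 in order and holds 41.0% of the heavy chain V level. In the kappa locus the 50 genes nearest to the J segments made up 14.3% of the level in the deletion sample and 45.1% in the control sample, where the distant ones include Igkv15-103. Kappa V genes on the minus strand, which join by inversion, made up 27.5% of the kappa V level in the deletion sample and 35.0% in the control sample. A few segments set these shares, so they describe which segments led and not a gradient along the locus.

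**Figure D4:**
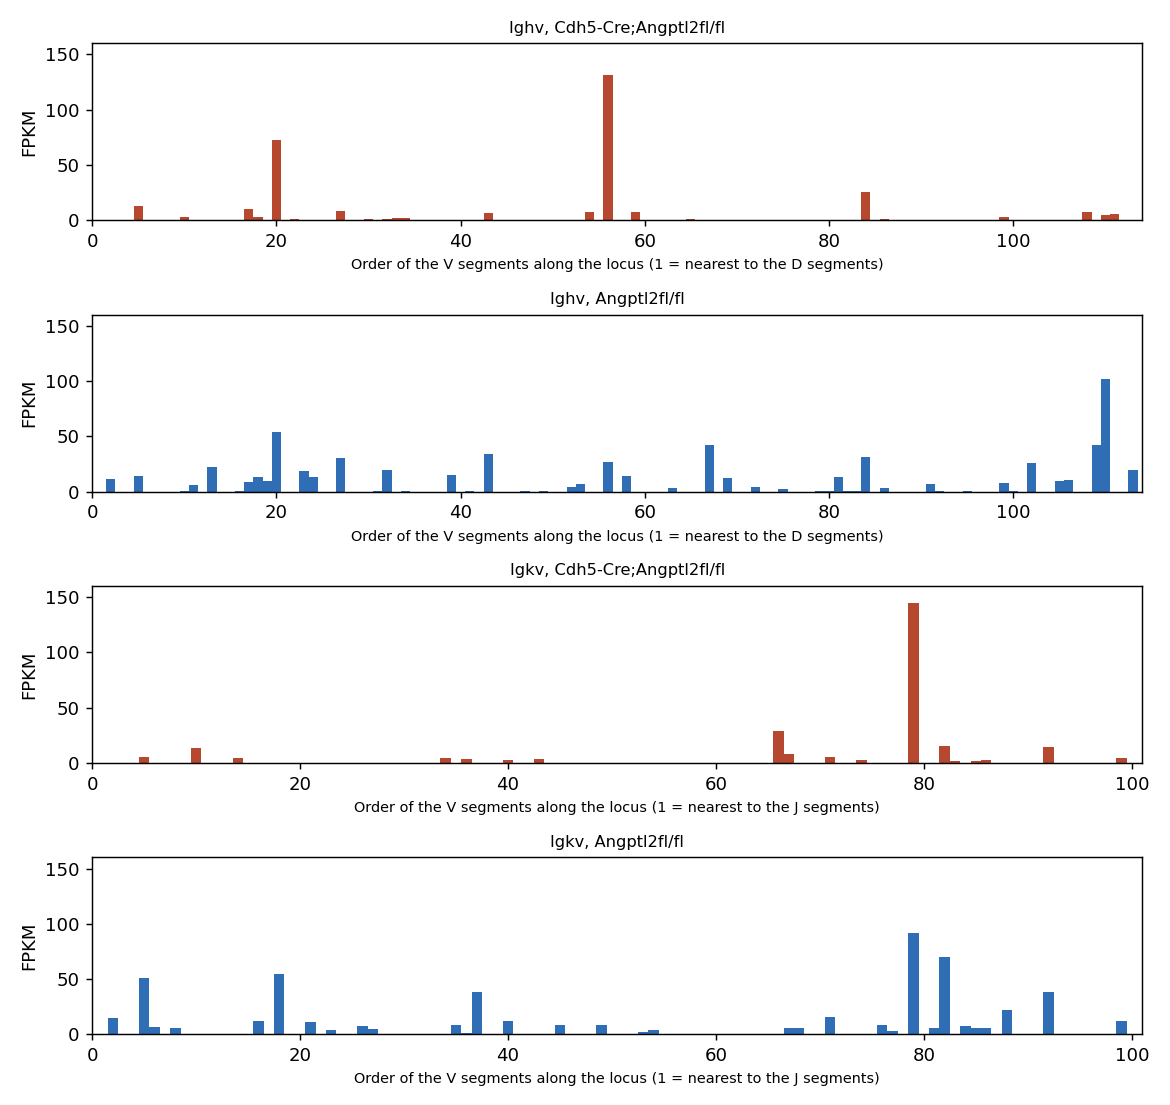
FPKM (vertical axis, linear) of each of the 113 annotated Ighv and 100 annotated Igkv genes by their order along the locus (horizontal axis, 1 is nearest to the D segments for Ighv and to the J segments for Igkv). Each locus has the deletion sample above the control sample. Tall single bars mark Ighv7-1 and Ighv1-9 in the deletion sample, while the control sample has many bars over the whole order.

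V genes are close paralogs, and segments with like sequences can exchange fragments. Aligned within each locus, 89 of 11281 pairs of V transcripts had at least 95% identity over the shorter one. Of the members, 56 were in such a pair, and the median identity of a member to its nearest V gene was 95.02%, against 94.7% for the V genes listed at 0 in both libraries. The leading segments differed in this. Igkv15-103 had 76.2% identity to its nearest V gene, Ighv7-1 had 88.9%, Ighv1-9 had 90.9% and Ighv1-81 had 92.9%. Igkv3-5, by contrast, had 98.3% identity with Igkv3-10, and Ighv1-72 had 99.2% with Ighv1-62-3, which had 2 fragments in the control sample. Ighv1-62-2 stood at 7.31 FPKM in the control sample, while Ighv1-71, with 99.7% identity to it, was listed at 0 in both. Of the 17 members with no more than 3 fragments in either library, 7 had such a pair with a member of more fragments. The labels do not state how fragments that match several V genes were counted.

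The constant region genes, to which these segments are spliced, were lower in sum in the deletion sample for heavy and kappa chains and higher for lambda, as the V segments were. The kappa constant gene Igkc stood at 208 FPKM in the deletion sample and 467 FPKM in the control sample (interval -1.25 to -1.09), beside the kappa V log2 ratio of -1.04. The 8 heavy chain constant genes summed to 230 FPKM in the deletion sample and 362 FPKM in the control sample. Within them Ighm, the constant region of IgM, was nearly equal at 169 FPKM in the deletion sample and 164 FPKM in the control sample (interval -0.011 to 0.099), and Igha was at 55.6 FPKM in the deletion sample and 110 FPKM in the control sample. Ighg2c was at 0.31 FPKM in the deletion sample and 43.0 FPKM in the control sample. Annotated V pseudogenes, which cannot encode an antibody, were nearly silent in both libraries, with 9 fragments over 155 models in the deletion sample and 14 in the control sample. All 19 annotated D segments were listed at 0 in both, and the 14 J segments together had 28 fragments in the deletion sample and 23 in the control sample. The D models are 10 to 29 bases long and the J models 38 to 100, shorter than the 150 bp reads. These counts therefore cannot show whether D and J segments were absent from the mRNA.

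**Figure D5:**
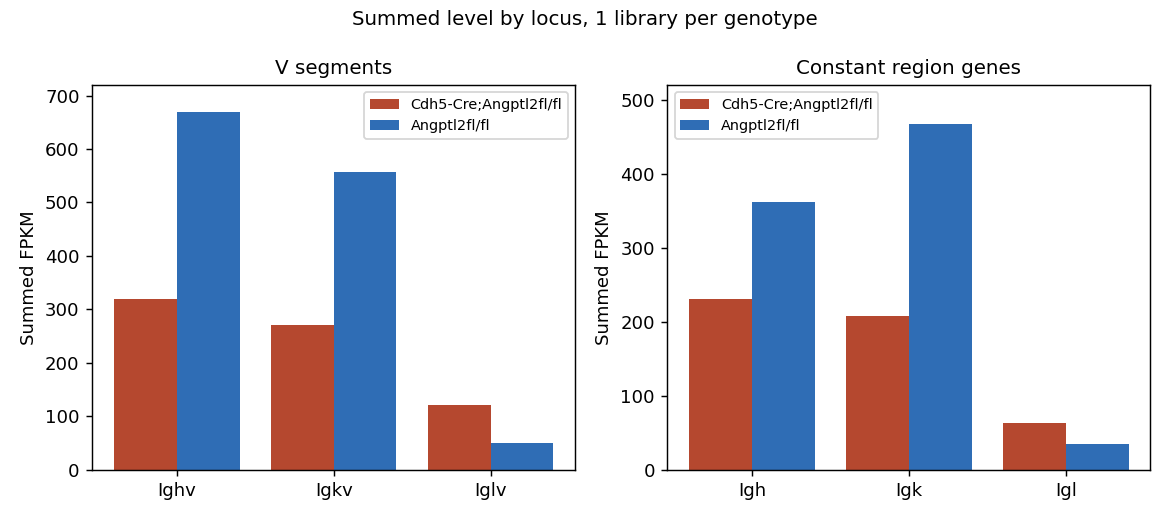
Summed FPKM (vertical axes, linear) of the V segments (left) and of the constant region genes (right) of the heavy (Igh), kappa (Igk) and lambda (Igl) loci in the deletion sample (left bar of each pair) and the control sample (right bar). Heavy and kappa sums are lower and lambda sums higher in the deletion sample in both panels.

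Markers of HSCs and progenitors were present in both libraries, with none of 10 genes at 0. Their levels were 0.55 to 48.8 FPKM in the deletion sample and 0.40 to 54.3 FPKM in the control sample. In the deletion sample 1 of the 10 was higher and 9 were lower by plain FPKM, none of those at the minimum by 2-fold. Of 10 plasma cell genes that reached the minimum mean of 1 FPKM, none was higher and 1 was lower by 2-fold or more. The whole list of 15 summed to 99.2 FPKM in the deletion sample and 107 FPKM in the control sample. Within it 7 genes were higher and 8 lower in the deletion sample by plain FPKM. The highest of that list, Sec11c and Xbp1, which serve protein secretion, stood at 33.0 FPKM and 27.6 FPKM in the deletion sample and at 31.0 FPKM and 24.8 FPKM in the control sample. The gene lower by 2-fold or more was Mzb1, an endoplasmic reticulum protein of antibody-secreting cells. It was at 2.10 FPKM in the deletion sample and 5.21 FPKM in the control sample. Tnfrsf13b went the other way, at 4.63 FPKM in the deletion sample and 3.79 FPKM in the control sample. Jchain, which links IgM and IgA chains, was at 14.1 FPKM in the deletion sample and 22.0 FPKM in the control sample. Tnfrsf17, the plasma cell receptor BCMA, was listed at 0 in the deletion sample and had 5 fragments in the control sample. None of 5 B-lineage genes at the minimum passed 2-fold, and the list of 15 summed to 52.4 FPKM in the deletion sample and 48.9 FPKM in the control sample. Within them Ms4a1, the CD20 gene, had 6 and 9 fragments, deletion sample first. Levels in that list ran from 0 to 31.4 FPKM in the deletion sample and from 0.014 to 31.9 FPKM in the control sample, the top being Cd37 in both. Its genes divided into 4 higher and 11 lower in the deletion sample by plain FPKM. Of 7 genes of early B cells and rearrangement at the minimum none passed 2-fold. By plain FPKM, 8 of the 12 genes in that list were higher in the deletion sample and 4 lower. Below the minimum, Vpreb2 had 21 fragments in the deletion sample and 3 in the control sample (log2 ratio 1.11). The recombinase gene Rag1, also below it, was at 0.63 FPKM in the deletion sample and 0.37 FPKM in the control sample. T-cell genes summed to 3.26 FPKM in the deletion sample and 4.73 FPKM in the control sample. By plain FPKM, 2 of the 8 were higher in the deletion sample and 6 lower. At 0 were 4 of 8 in the deletion sample and none in the control sample, where those 4 had 2 to 11 fragments. Over all genes above 0 in at least 1 library, 20.8% were listed at 0 in the deletion sample alone and 4.83% in the control sample alone. The part of other cell types in the V segment levels was not tested.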

How the data were processed

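RNA of sorted mouse HSCs was sequenced as 150 bp paired-end reads, per the labels' protocols. The authors deposited FPKM for 54531 Ensembl genes in 1 library per genotype. The submitters' processing notes list Bowtie 0.12.2 and mm8 without saying what each was used for. No source used here names the program that counted fragments or its gene models. Symbols, gene types, positions and transcripts came from GENCODE M21 (GRCm38), which matched 54494 identifiers.

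FPKM times exon length gave whole fragments, within 0.02 of a whole number, for 95.8% of genes above 0 in the deletion sample and 96.2% in the control sample. Gapdh, a gene with many pseudogene copies, stood at 4.24 FPKM in the deletion sample and 4.44 FPKM in the control sample, against 431 FPKM and 444 FPKM for Actb. Ratios used a pseudocount of 1 FPKM, a minimum mean of 1 FPKM and a 2-fold threshold, and without replicates no test was made. V transcripts were aligned pairwise with Biopython 1.88, and intervals used SciPy 1.17.1. The computation was tested on simulated data.

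The members and lists were chosen with earlier results of these data known. Named were the 6 highest Ighv and Igkv members by mean, all Iglv, the 5 members with the highest and the 5 with the lowest ratio when the mean reached 5 FPKM, the 2 highest at 0 in the other library each way, and the lowest above 0. Other genes were named after their values were seen, and the marker lists are reported by the genes that bear on V segments, not by their highest alone. Alternatives were other pseudocounts, minimums, scalings and thresholds, and near-identical V segments merged.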

Additional observations from a re-analysis of the deposited data

How the results depend on the processing

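No paired analysis was possible because there is 1 library per genotype and no test. The 80 members gave 15 higher and 58 lower. Higher members numbered 8 with a pseudocount of 5, 4 at a minimum mean of 5 FPKM (33 lower, of 43) and 9 at 4-fold. The median log2 ratio of the members was -5.21 with a pseudocount of 0.1, -1.14 with 5, -1.26 without a minimum, -3.23 at a minimum mean of 5 FPKM and -3.15 after rescaling to a common total. As deposited, the FPKM totals were 419943 in the deletion sample and 379052 in the control sample. Rescaling equalises these totals, and scaling without immunoglobulin genes equalises those of the other genes. For the sums the 2 are thus nearly the same setting. They differ for single members, because the common total of 1000000 raises levels against the fixed pseudocount and minimum. Rescaling gave 20 higher and 63 lower of 90 members, and 618 and 1182 of 15021 genes. Scaling without immunoglobulin genes gave 14 and 58 of 79 members (median log2 ratio -2.46), and 251 and 484 of 12349 genes. The median of all genes moved to -0.16 and to -0.14. Rescaling gave sum log2 ratios of -0.99 for all members, -1.21 for Ighv and -1.19 for Igkv. Scaling without immunoglobulin genes gave -0.99, -1.22 and -1.19 in the same order. Without the highest member of each library the ratios were -1.05, -1.59 and -1.89, and that of Iglv was -3.94, reversed by the loss of Iglv2. At 1 FPKM or more the control sample had 34 Ighv members. With segments of at least 95% identity merged, the 5 highest held 48.3% of Ighv and 58.5% of Igkv in the control sample, and the highest Iglv group 100% in the deletion sample and 98.5% in the control sample, because Iglv1 and Iglv2 merge. Of 19 named members under 9 settings, no direction reversed, and 3 values, of Iglv3 and Ighv1-77, crossed 2-fold. The settings of pseudocount and threshold could not reverse a direction, so only the scalings bear on that. Depth limits members of few fragments.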
